A study of Mus musculus with 4 samples.

Results

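The expression of 32 genes of cholesterol synthesis, uptake and efflux was examined in *Pich*-KO and *Pich*-WT LSK cells of the mouse fetal liver. The genes were taken by symbol from the deposited table of 39186 genes, and 32 of 32 were found. LSK cells are the lineage-negative, Sca-1-positive, c-Kit-positive cells in which hematopoietic stem cells and early progenitors are enriched. RNA sequencing covered 2 *Pich*-KO and 2 *Pich*-WT samples, all of strain C57BL/6 and with no treatment named. *Pich* encodes a DNA translocase of mitosis and is listed as *Ercc6l*. The *Pich*-KO embryos carry a TALEN-made germline deletion at the beginning of exon 2, so every tissue of the embryo lacks the gene product. Fetal livers for cell sorting were taken at embryonic day 14.5, and the labels of these libraries add no stage of their own. Neither the labels nor the methods say whether a sample is 1 embryo or a pool. The p-values therefore measure the spread between these samples, which may be partly technical.

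Cells build cholesterol from acetyl-CoA through the mevalonate pathway, in which isoprenoid precursors are made first and are then joined into squalene and closed into the sterol rings. The genes of these enzymes are switched on by the SREBP transcription factors. SREBPs are escorted out of the endoplasmic reticulum by Scap when sterols are scarce and are held back by the Insig proteins when sterols are plentiful. Excess cholesterol is esterified for storage or exported by ABC transporters, whose genes are induced by the oxysterol-sensing LXR nuclear receptors. Proliferating hematopoietic progenitors need sterols for new membrane, and macrophages, which take up whole cells, are known for high cholesterol export.

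Transcripts of the 19 synthesis enzymes summed to 1.26-fold more in *Pich*-KO than in *Pich*-WT LSK libraries. In the LXR and efflux group 3 of 4 genes were lower (75%, against 9.6% of all genes tested). Members and lists were chosen with earlier results of these data known, so this share is a description only. Markers of other cell types differed between the libraries as well, and their part in these differences was not tested. At an adjusted p of 0.05, 3 of 32 genes rose (*Acat2*, *Idi1* and *Srebf1*), which is 9.38% against 7.58% of all 32428 genes tested. A further 4 of 32 fell (*Abcg1*, *Abca1*, *Mylip* and *Stard4*), which is 12.5% against 9.6% of all genes tested. Both shares are near the background, and 25 genes did not pass the test. The shares of all genes tested, here and below, include genes with few reads and are not matched to the level of the cholesterol genes. Over the 13924 genes with at least 10 reads in every sample, the same test called 2937 as higher and 3135 as lower. With that filter 7 of the 32 genes rose (21.9%) and 4 fell. Log2 fold changes of *Pich*-KO against *Pich*-WT were positive for 21 genes and negative for 11, with a median of 0.20 against 0.02 over all genes tested. For 17 genes (53.1%) both *Pich*-KO values lay above both *Pich*-WT values, against 28.9% of all genes tested. For 8 genes (25%) both lay below, against 27.2%. With 2 samples a group, a permutation test of a single gene cannot go below p = 0.333, so the calls rest on the spread that limma borrows across genes.

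The libraries held 14703215 to 20933919 reads on genes. Replicates were distinct libraries, since the chi-square of their counts, divided by its degrees of freedom, was 17.7 for the *Pich*-KO pair and 9.54 for the *Pich*-WT pair. *Ercc6l* mRNA was higher in *Pich*-KO (1142 and 1232) than in *Pich*-WT (772 and 661). The deletion is small and its transcripts can still be counted, so this does not check the labels. *Pich*-WT sample 2 had 0 reads on 4 Y-linked genes and 699 on *Xist*, while the other 3 samples had reads on those Y-linked genes and 4.55 to 14.2 normalized reads on *Xist*. The *Kit* transcript, for 1 of the surface proteins that the LSK gate requires, was present in all samples, at 2328 to 4447 normalized reads. Its presence alone does not show which cells the libraries held. Of 12 LSK and stem cell markers 1 (*Ly6a*) rose while 5 fell, against 7.58% and 9.6% of all genes tested. Their log2 fold changes ran from −2.88 to 1.74 with a median of −0.57, so this list too differed between the groups. Its summed level was 20591 to 32513 in *Pich*-KO against 28821 to 30485 in *Pich*-WT, with the most reads on *Cd34*. Of 18 macrophage markers 17 fell in *Pich*-KO and none was at 0, and their summed level was 10480 to 12375 in *Pich*-KO against 81942 to 89448 in *Pich*-WT, with the most reads on *Csf1r*. All 7 endothelial markers fell (summed level 1505 to 2497 against 19634 to 28955, with the most reads on *Lyve1*), as did 7 of 9 erythroid markers (27646 to 30795 against 118673 to 156422, with the most reads on *Hba-a1*) and 7 of 10 hepatocyte markers (2699 to 3183 against 4570 to 5110, with the most reads on *Afp*). Of 8 neutrophil granule genes 2 rose, *Mpo* and *Prtn3*, while 4 log2 fold changes were positive and 4 negative, with a median of 0.07. The summed level of the list was 63591 to 118083 against 16446 to 19054. Most of the *Pich*-KO sum was *Mpo*, at 54647 and 90492 in *Pich*-KO against 10351 and 12533 in *Pich*-WT. The lineage antibodies of the sort were against CD4, CD8, Gr-1, B220 and Ter119, and the LSK gate also required c-Kit and Sca-1. Whether cells from outside the gate entered the libraries was not tested. In bulk RNA, fewer cells of a type and less RNA per cell cannot be told apart.

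**Figure D1:**
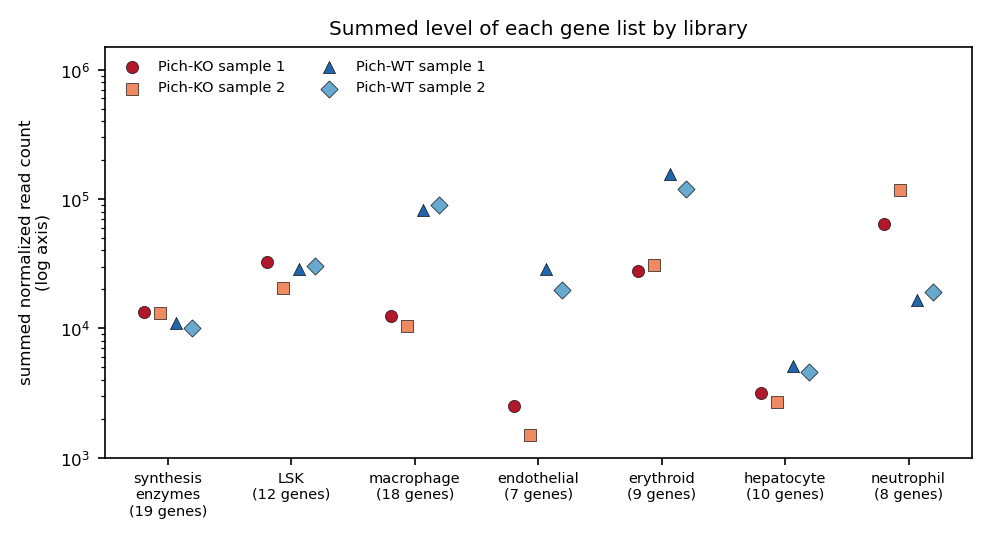
Summed normalized read count of each gene list on a log axis, with 1 point per library and the lists along the horizontal axis. The 19 synthesis enzymes sum to 13068 to 13468 in *Pich*-KO and 10026 to 11086 in *Pich*-WT, while the macrophage, endothelial and erythroid sums of *Pich*-KO lie far below those of *Pich*-WT.

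Because the synthesis enzymes are classical SREBP targets, the DNA upstream of their start sites was read from RefSeq promoter windows of GRCm38.p6, from 250 bases before to 50 bases after the start. A window was found for 26 of the 32 genes, those other than *Fdps*, *Fdft1*, *Sqle*, *Stard4*, *Npc1* and *Abcg1*. The letters CCAAT, bound by NF-Y, a factor known to act beside SREBP, stood on either strand in the windows of 15 of 16 synthesis enzymes (93.8%), against 41.1% of 27025 genes with a window. The exception was *Acat2*. Among the other cholesterol genes with a window, 7 of 10 (70%) held them. The Sp1 letters GGGCGG were in 27 of 34 windows of cholesterol genes, against 35.7% of 32851 windows. The letters TCACNCCAC of a sterol regulatory element were in 1 of the 34 windows, that of *Hmgcs1*, against 1.24% of all windows. The exact form of the LXR element, AGGTCA repeated without mismatch after a gap of 4 bases, was in 0 of the 34, against 0.0152%. Imperfect copies of this repeat were not searched, so the count does not tell whether these windows hold an LXR element. The interferon-stimulated response element GAAANNGAA was in 2 of the 34, those of *Ebp* and *Ggps1*, against 8.56%. Both strands were searched for each motif, these counts are descriptions with no test, and an absent match says only that these letters are not in the window. The 150 bases before the start are shown for the mevalonate enzymes that rose (*Acat2*, *Idi1*), for the enzyme with the sterol element letters (*Hmgcs1*), and for genes that fell (*Mylip*, *Abca1*), a choice made after their values were seen. Each is written 5′ to 3′ on the strand of the gene, and capitals mark CCAAT (read as ATTGG on the other strand) and, in *Hmgcs1*, the sterol element letters.
Acat2, chr17:12960726-12960875, minus strand: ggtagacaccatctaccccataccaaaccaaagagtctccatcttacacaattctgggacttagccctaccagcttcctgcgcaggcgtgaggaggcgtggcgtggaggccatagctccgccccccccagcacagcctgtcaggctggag
Idi1, chr13:8885456-8885605, plus strand: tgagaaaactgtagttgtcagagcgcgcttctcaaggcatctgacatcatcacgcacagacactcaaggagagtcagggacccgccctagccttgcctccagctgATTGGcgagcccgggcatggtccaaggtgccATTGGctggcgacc
Hmgcs1, chr13:119690201-119690350, plus strand: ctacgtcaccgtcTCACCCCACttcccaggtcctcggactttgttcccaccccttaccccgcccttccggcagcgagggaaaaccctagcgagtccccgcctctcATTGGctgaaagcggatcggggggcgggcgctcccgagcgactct
Mylip, chr13:45389592-45389741, plus strand: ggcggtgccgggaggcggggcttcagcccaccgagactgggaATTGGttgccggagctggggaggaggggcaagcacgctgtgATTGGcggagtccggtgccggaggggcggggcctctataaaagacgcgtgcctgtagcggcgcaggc
Abca1, chr4:53159896-53160045, minus strand: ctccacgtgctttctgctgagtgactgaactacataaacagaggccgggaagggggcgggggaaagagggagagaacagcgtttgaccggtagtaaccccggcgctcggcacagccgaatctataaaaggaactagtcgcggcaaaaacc
*Idi1* carries the NF-Y letters at 2 places within 45 bases of its start, on the minus strand, and *Hmgcs1* carries them once in the stretch shown, nearer to the start than the sterol element letters. *Mylip*, which fell, carries them at 2 places in its stretch as well, while *Acat2*, which rose, and *Abca1*, which fell, have none.

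Of the 8 enzymes that lead from acetyl-CoA to the isoprenoid precursors, 2 rose (25%, against 7.58% of all genes tested) and 0 fell (against 9.6%). The other 6 did not pass the test, and the median log2 fold change of the 8 was 0.38. Over genes with at least 10 reads in every sample, the same test called 2937 of 13924 as higher. *Acat2* encodes the cytosolic acetoacetyl-CoA thiolase of the first step (chromosome 17, 12942890 to 12960747). It stood at 1599 and 1780 normalized reads in *Pich*-KO samples 1 and 2 and at 1166 and 1183 in *Pich*-WT samples 1 and 2. Both *Pich*-KO samples were high, without overlap, with a fitted fold of 1.44 over *Pich*-WT (log2 fold change 0.52, standard error 0.12, adjusted p = 0.0189). *Idi1*, the isopentenyl-diphosphate isomerase (chromosome 13, 8885501 to 8892451), stood at 580 and 557 in *Pich*-KO and at 395 and 370 in *Pich*-WT. Its groups did not overlap, and its samples agreed closely within each group (log2 fold change 0.57, standard error 0.15, adjusted p = 0.0374). *Mvd*, which decarboxylates mevalonate diphosphate, had 440 and 492 in *Pich*-KO against 371 and 304 in *Pich*-WT (log2 fold change 0.47, adjusted p = 0.125). *Hmgcs1*, the HMG-CoA synthase, had 966 and 918 against 840 and 711 (log2 fold change 0.29, 95% interval −0.04 to 0.61). *Pmvk*, the phosphomevalonate kinase, had 483 and 604 against 458 and 478, with the lower *Pich*-KO value next to the *Pich*-WT values. These groups did not overlap, but none of the 3 differences passed the test.

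For the other mevalonate enzymes the groups overlapped or were in the opposite order. *Mvk*, the mevalonate kinase, was the one synthesis enzyme whose *Pich*-KO values, 209 and 243, both lay below its *Pich*-WT values, 272 and 244 (log2 fold change −0.19, adjusted p = 0.591). *Ggps1*, which makes the geranylgeranyl chain for protein anchors, had 554 and 416 against 506 and 479, with a log2 fold change of −0.04 (95% interval −0.46 to 0.39). *Fdps*, the farnesyl diphosphate synthase, was the most variable gene of the 32, at 65.4 and 164 in *Pich*-KO against 39.9 and 78.0 in *Pich*-WT. Its samples differed 2.50-fold within *Pich*-KO and 1.96-fold within *Pich*-WT, so that its log2 fold change of 0.88 had a 95% interval from −0.24 to 2.01. Of its exonic bases 26.7% also belong to *Gm43738*, a gene annotated on the same strand and not analysed here, and the effect of this overlap on the *Fdps* count was not tested.

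The 11 enzymes from squalene to cholesterol all had positive log2 fold changes, from 0.06 to 0.63 with a median of 0.30, but 0 of 11 passed the test. For 9 of them (81.8%) both *Pich*-KO values were above both *Pich*-WT values, against 28.9% of all genes tested. *Sqle*, the squalene epoxidase that limits the rate of the late pathway, stood at 1582 and 1340 in *Pich*-KO and at 1132 and 958 in *Pich*-WT. Both *Pich*-KO samples were higher than either *Pich*-WT sample (log2 fold change 0.48, standard error 0.14, adjusted p = 0.0568). *Cyp51*, the lanosterol demethylase, stood at 1176 and 1044 against 854 and 742 (log2 fold change 0.48, standard error 0.14, adjusted p = 0.0557). *Lss*, which closes the sterol rings to lanosterol, stood at 632 and 706 against 501 and 417 (log2 fold change 0.55, standard error 0.16, adjusted p = 0.0576). These 3 enzymes missed the threshold narrowly, and each passed it with edgeR on the recovered reads (adjusted p = 0.0243, 0.0223 and 0.0253 for *Sqle*, *Cyp51* and *Lss*), a test that called 18.6% of its 16608 genes as higher.

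The remaining late enzymes had smaller or less certain differences. *Hsd17b7*, a sterol ketoreductase, had the greatest log2 fold change of the 11, at 217 and 174 against 130 and 120 normalized reads (log2 fold change 0.63, 95% interval 0.11 to 1.16, adjusted p = 0.101). *Sc5d*, the lathosterol desaturase, had 545 and 529 against 443 and 372 (log2 fold change 0.40, adjusted p = 0.149). For *Tm7sf2*, *Msmo1*, *Nsdhl* and *Dhcr7*, the last being the reductase that yields cholesterol itself, the groups did not overlap, and log2 fold changes were 0.30, 0.25, 0.30 and 0.20 with adjusted p from 0.279 to 0.43. *Ebp*, the sterol isomerase, had 976 and 988 against 1017 and 877, so that its *Pich*-WT values lay on both sides of its *Pich*-KO values (log2 fold change 0.06). *Ebp* and *Nsdhl* are on chromosome X. *Nsdhl* stood at 366 and 354 in *Pich*-WT samples 1 and 2, and the part of the sample that lacked Y-linked reads in either value was not tested. *Fdft1*, the squalene synthase, had 748 and 663 against 694 and 579 (log2 fold change 0.15). Of its exonic bases 18.3% overlap the opposite-strand gene *Ctsb*, a lysosomal protease gene that stood at 6725 and 5726 in *Pich*-KO against 37995 and 38177 in *Pich*-WT. The library kit does not mark strand, so reads in the overlap cannot be assigned, and how far they enter the *Fdft1* count was not tested.

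Summed over all 19 synthesis enzymes, *Pich*-KO had 13268 ± 283 (SD, n = 2) normalized reads and *Pich*-WT had 10556 ± 749 (SD, n = 2), a ratio of 1.26. The groups of this sum did not overlap. Marker levels of several cell types differed between the same libraries, and the part of cell mix in this ratio was not tested. The mevalonate enzymes had a ratio of 1.28 and the squalene and sterol enzymes of 1.25.

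**Figure D2:**
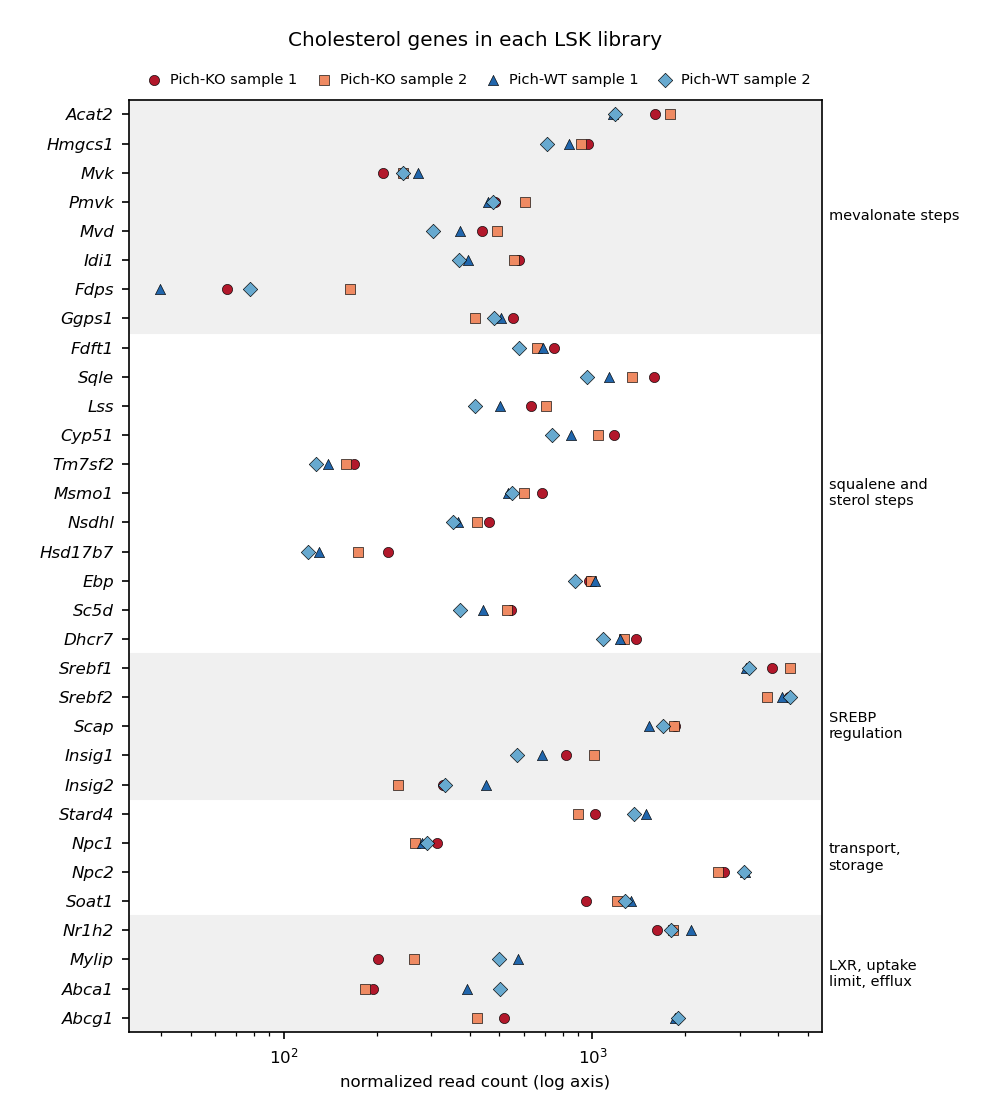
Normalized read count of each of the 32 genes in each library, on a log axis, with red and orange for *Pich*-KO and blue for *Pich*-WT and the genes ordered by their place in the pathway. *Pich*-KO points lie to the right for most synthesis enzymes and to the left for *Mylip*, *Abca1* and *Abcg1*.

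Of the 5 genes that regulate the pathway, 1 rose (20%, against 7.58% of all genes tested) and 4 did not pass the test. *Srebf1*, which encodes the SREBP-1 factors that drive fatty acid as well as sterol genes, had a level per length of 725 normalized reads per kilobase of exon in *Pich*-KO, the highest there of the 32 genes, and of 565 in *Pich*-WT. Its values were 3803 and 4367 in *Pich*-KO against 3152 and 3217 in *Pich*-WT. The groups did not overlap, and the *Pich*-KO samples were more spread than the *Pich*-WT samples (log2 fold change 0.36, standard error 0.10, adjusted p = 0.0492). This call was at the edge of the threshold and was lost with a pseudocount of 0.1 (adjusted p = 0.0707), with no filter on the mean (0.0905) and with DESeq2 (0.054). *Srebf2*, the main SREBP of cholesterol synthesis, had 4325 and 3676 against 4101 and 4359, with overlapping groups (log2 fold change −0.08, 95% interval −0.33 to 0.16, adjusted p = 0.675). *Scap*, the SREBP escort, had 1852 and 1832 against 1522 and 1688 (log2 fold change 0.20, adjusted p = 0.297).

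The Insig genes, whose products retain SREBPs, had opposite signs. *Insig1*, itself a classical SREBP target, stood at 823 and 1014 in *Pich*-KO and at 687 and 569 in *Pich*-WT. Both *Pich*-KO samples were high (log2 fold change 0.55, standard error 0.17, adjusted p = 0.0616), and edgeR called the gene (adjusted p = 0.0303). *Insig2*, which is not induced by SREBP in the same way, stood at 329 and 234 against 452 and 332. Its higher *Pich*-KO value was next to the lower *Pich*-WT value, and each group was spread (log2 fold change −0.48, 95% interval −1.03 to 0.07, adjusted p = 0.235).

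Of the 4 genes of intracellular transport and storage, 1 fell (25%, against 9.6% of all genes tested) and 3 did not pass the test. *Stard4*, a soluble sterol carrier whose gene is also known as an SREBP target, stood at 1022 and 899 in *Pich*-KO and at 1493 and 1359 in *Pich*-WT. Both *Pich*-KO samples were low (log2 fold change −0.57, standard error 0.13, adjusted p = 0.0197), a sign opposite to that of *Acat2* and *Idi1*. *Npc2*, which carries cholesterol inside the lysosome, stood at 2669 and 2552 against 3107 and 3091, without overlap (log2 fold change −0.25, 95% interval −0.47 to −0.03, adjusted p = 0.128). Its membrane partner *Npc1* had 314 and 266 against 281 and 292, and a log2 fold change of 0.01. *Soat1*, which esterifies cholesterol for storage, had 952 and 1200 against 1334 and 1278 (log2 fold change −0.29, adjusted p = 0.242).

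The LXR receptor and the genes it induces gave the largest differences, with 3 of 4 lower (75%, against 9.6% of all genes tested). Their median log2 fold change was −1.22. *Abcg1*, which exports cholesterol to high-density lipoprotein (chromosome 17, 31057698 to 31115777), stood at 517 and 422 in *Pich*-KO and at 1854 and 1889 in *Pich*-WT. *Pich*-KO averaged 469 ± 67.4 (SD, n = 2) and *Pich*-WT 1871 ± 24.9 (SD, n = 2), far apart beside the spread (log2 fold change −2.00, standard error 0.14, adjusted p = 0.000112). *Abca1*, which loads cholesterol onto nascent lipoprotein (chromosome 4, 53030787 to 53159895), stood at 194 and 184 in *Pich*-KO and at 394 and 502 in *Pich*-WT. Its *Pich*-KO samples nearly coincided, and both were below either *Pich*-WT sample (log2 fold change −1.23, standard error 0.19, adjusted p = 0.00375). *Mylip*, also called Idol, encodes the ubiquitin ligase that removes lipoprotein receptors from the surface and so limits uptake (chromosome 13, 45389742 to 45412022). It stood at 202 and 265 in *Pich*-KO and at 574 and 498 in *Pich*-WT, a fitted fold of 2.31 in favor of *Pich*-WT (log2 fold change −1.21, standard error 0.20, adjusted p = 0.00439). *Nr1h2*, the LXR-beta receptor, had 1614 and 1829 against 2088 and 1794, with overlapping groups (log2 fold change −0.17, adjusted p = 0.444). The macrophage markers fell beside these genes, with a summed level 7.50-fold higher in *Pich*-WT, and the endothelial markers with one 12.1-fold higher. Both cell types are known to express *Abca1* and *Abcg1*, and their part in the lower efflux genes was not tested.

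**Figure D3:**
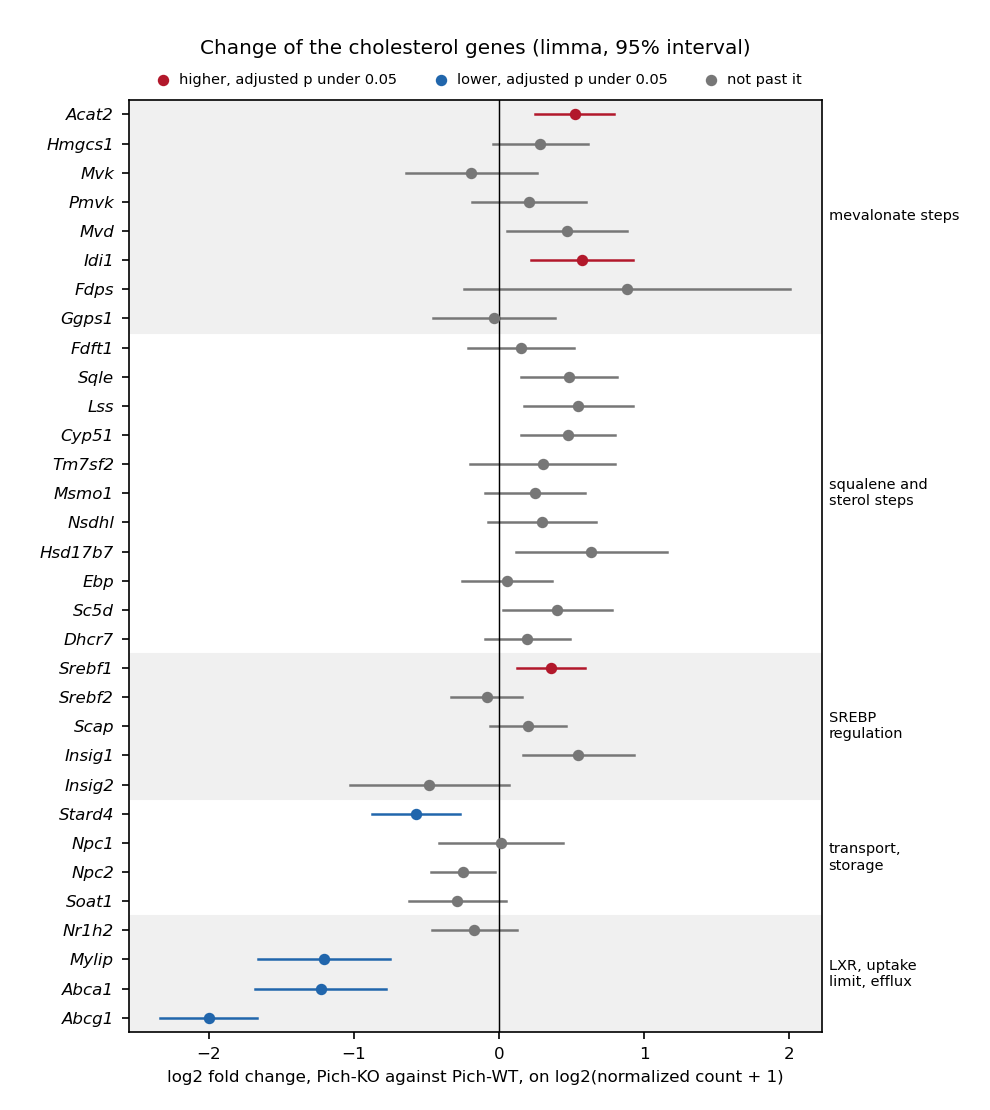
Log2 fold change of each cholesterol gene, *Pich*-KO against *Pich*-WT, with its 95% interval from limma, colored by the call at an adjusted p of 0.05. *Acat2*, *Idi1* and *Srebf1* lie above 0, *Stard4* at −0.57 and *Mylip*, *Abca1* and *Abcg1* between −1.21 and −2.00 lie below it, and the interval of *Fdps* is the widest.

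The calls differed in how firmly they stood. With edgeR on the recovered reads, 7 genes rose (21.9%, against 18.6% of all genes) and the same 4 fell (12.5%, against 20.7%). With DESeq2, 6 rose (18.8%, against 16.7%) and the same 4 fell (12.5%, against 20.3%). With edgeR, the 4 that rose in addition to *Acat2*, *Idi1* and *Srebf1* were *Sqle*, *Lss*, *Cyp51* and *Insig1*. When *Pich*-WT sample 2 was left out of the edgeR test, 0 genes rose and the same 4 fell. When *Pich*-WT sample 1 was left out, *Insig1* alone rose, and *Abca1*, *Abcg1* and *Mylip* fell, *Stard4* no longer being called (adjusted p = 0.101). *Acat2* then had a log2 fold change of 0.52 (adjusted p = 0.0761) and *Idi1* of 0.63 (adjusted p = 0.0862), so these kept their direction and size. Thus *Abca1*, *Abcg1* and *Mylip* were called with either *Pich*-WT sample alone, and none of the synthesis enzymes was. With limma and 1 prior variance for all genes, no gene of the 32, nor any of the 32428, passed the threshold, while 7377 genes had an unadjusted p under 0.05.

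Per kilobase of exon in *Pich*-KO, *Srebf1* was followed by *Acat2* and *Srebf2*, with 664 and 557 normalized reads in *Pich*-KO against 462 and 589 in *Pich*-WT. In *Pich*-WT, *Srebf2* stood above *Srebf1*, and *Nr1h2* (579) and *Npc2* (570) were between them. Low levels per kilobase in *Pich*-KO were those of *Abca1* (18.3) and *Fdps* (27.2). *Abcg1*, *Npc1* and *Tm7sf2* were not placed in this order, since the exon length listed for them differs from that of GENCODE M21, for *Abcg1* with 4066 against 7298 bases.

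Around these genes, 50 further genes of SREBP processing, isoprenoid branches, uptake, transport and oxysterols were followed. Of these 6 rose (12%, against 7.58% of all genes tested), 12 fell (24%, against 9.6%) and 32 did not pass the test, with a median log2 fold change of −0.24. In the branches that use isoprenoids for ubiquinone, dolichol and protein anchors, 2 of 10 rose and none fell. The greatest increase there was in *Pdss1*, which builds the ubiquinone tail and stood at 719 and 704 in *Pich*-KO against 400 and 329 in *Pich*-WT (log2 fold change 0.97, adjusted p = 0.00496). Of 9 genes of SREBP processing and sterol-dependent turnover 1 rose and 2 fell, of 8 genes of uptake and ester hydrolysis 1 rose and 2 fell, and of 10 genes of intracellular transport 1 rose and 2 fell. Of 3 genes that act in or pass electrons to the sterol steps, *Por* and *Cyb5r3*, the electron donors, fell (log2 fold change −0.46 and −0.81, adjusted p = 0.0498 and 0.000958). The call of *Por* was at the edge of the threshold and was kept in 5 of 8 alternatives on all samples, against 7 of 8 for *Cyb5r3*. *Tmem97*, a sterol-regulated membrane protein of the endoplasmic reticulum, rose to 1961 and 2326 from 1133 and 1002 (log2 fold change 1.00, adjusted p = 0.00164). *Lipa*, the lysosomal lipase that frees cholesterol from esters, fell to 1194 and 1003 from 4091 and 4081 (log2 fold change −1.90, adjusted p = 6.7e-05). *Scarb1*, the receptor for high-density lipoprotein, had 3555 and 4020 against 4751 and 4613 (log2 fold change −0.31, adjusted p = 0.0686).

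Among 10 efflux and oxysterol genes 4 fell (40%, against 9.6% of all genes tested) and 1 rose (10%, against 7.58%). *Rxra*, a dimer partner of LXR, stood at 70.9 and 60.2 in *Pich*-KO and at 355 and 377 in *Pich*-WT (log2 fold change −2.47, adjusted p = 0.000256). *Rxrb*, another such partner, had far more reads and did not pass the test. It had 1948 and 2093 against 2432 and 2172 (log2 fold change −0.19, adjusted p = 0.328). *Cyp27a1*, which makes the oxysterol 27-hydroxycholesterol, stood at 116 and 118 against 618 and 642 (log2 fold change −2.42, adjusted p = 0.000113). *Smpdl3a*, a phosphodiesterase gene known as an LXR target, stood at 411 and 224 against 1535 and 1765 (log2 fold change −2.44, adjusted p = 0.000632). *Rxra*, *Cyp27a1* and *Smpdl3a* were low in both *Pich*-KO samples, as were *Abca1*, *Abcg1* and *Mylip*. Of the macrophage markers 17 of 18 were also called as lower, as were all 7 endothelial markers, and a link to these genes was not tested. *Abca2*, a transporter of endosomal lipids, went the other way, at 1480 and 936 against 368 and 308 (log2 fold change 1.80, adjusted p = 0.00125). *Ch25h*, an interferon-inducible enzyme that makes 25-hydroxycholesterol, had few reads in all samples, at 10.9 and 4.55 against 23.4 and 38.0 (log2 fold change −1.93, adjusted p = 0.0533). *Lbr*, the lamin B receptor, which is also a sterol reductase able to stand in for *Tm7sf2*, stood at 8950 and 8235 against 7277 and 6983 (log2 fold change 0.27, adjusted p = 0.0604).

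**Figure D4:**
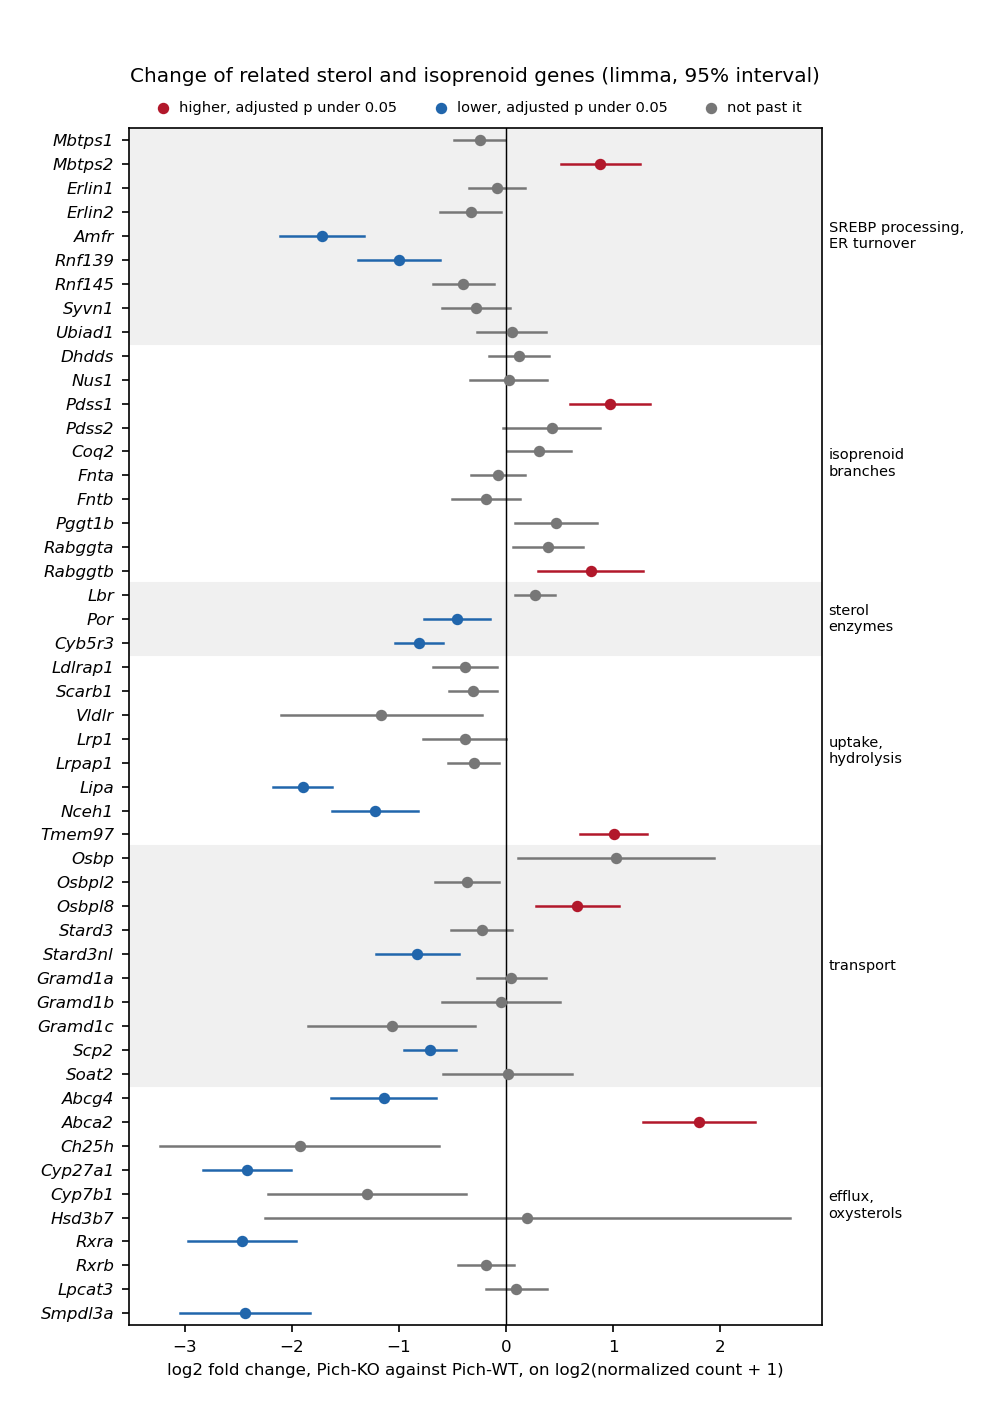
Log2 fold change with its 95% interval of the 50 further sterol and isoprenoid genes, *Pich*-KO against *Pich*-WT, grouped by role and colored by the call at an adjusted p of 0.05. *Abca2*, *Tmem97* and *Pdss1* are the highest of the genes called as higher, and *Rxra*, *Smpdl3a* and *Cyp27a1* are the lowest of those called as lower.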

How the data were processed

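The series holds RNA sequencing of sorted fetal liver LSK cells, with 2 *Pich*-KO samples and 2 *Pich*-WT samples. The deposited sample values are a signal that the authors made by dividing the reads on each gene by 1 size factor per sample. The labels' processing notes name Bowtie 0.12.2, mm8 and mm9. The counter is not given in the sources used here. Of the 39186 genes 39131 were found in GENCODE M21, 97.8% of them at the same coordinates, so coordinates are on GRCm38. The fold change and p-value columns of the authors' own comparison were not used.

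Values were tested on log2(value + 1) with limma 3.58.1 in R 4.3.3, letting the prior variance depend on expression, two-sided, for the 32428 genes averaging 1 or more, and Benjamini-Hochberg adjustment over all of them. All 32 cholesterol genes passed this filter. A fold change on this scale understates the change of low genes. Dividing each sample's values by the worth of 1 read gave whole reads for 100% of values, within 0.01 of a whole number. These reads were tested with edgeR 4.0.16 and DESeq2 1.42.0 as alternatives. The limma and edgeR procedures were first tested on simulated data with 200 changed genes. There limma recovered 32% of 2-fold and 73% of 4-fold changes, and edgeR 47% and 79%. Changes smaller than 2-fold were not simulated, so a gene that did not pass the test may still differ. Depth was 14703215 to 20933919 reads on genes.

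All 32 genes may be named. Of the 50 further genes the 3 largest and 3 smallest log2 fold changes past the threshold were named, with *Ch25h*, *Lbr*, *Lipa* and *Scarb1*. *Por*, *Cyb5r3* and *Rxrb* were named after their values were seen, and *Faxdc2* was not analysed here. Marker lists are given as lists, naming the gene with the most reads and, after their values were seen, *Kit*, *Ly6a* and *Prtn3*. Members and lists were chosen with earlier results of these data known. Promoter sequences are from RefSeq (GRCm38.p6), and for 27 of 34 windows the 30 bases after the start lay in a GENCODE M21 transcript of the gene. Of the 32 genes 11 share exonic bases with another gene. Other alternatives were a pseudocount of 0.1, no filter, at least 10 reads in every sample, no variance trend, upper-quartile scaling, a replicate block and leaving out each sample.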

Additional observations from a re-analysis of the deposited data

How the results depend on the processing

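The number of cholesterol genes that rose was 3, and became 1 with no filter on the mean, 7 with at least 10 reads in every sample, 0 with no variance trend, 7 with edgeR, 8 with upper-quartile scaling, 6 with DESeq2 and 8 with the replicate block. The counts over all genes moved as well. With no filter 1840 of 39186 rose. With at least 10 reads in every sample 2937 of 13924 rose and 3135 fell. With upper-quartile scaling 3165 of 16608 rose, with edgeR 18.6%, with DESeq2 16.7% and with the replicate block 9.63%. Leaving out each sample gave 0 to 9. The number that fell was 4, became 0 with no variance trend, and was 0 to 6 with a sample left out. Of the further sterol genes 6 rose (0 with no variance trend, 0 to 11 with a sample left out) and 12 fell (19 with at least 10 reads in every sample, 0 with no variance trend, 0 to 19 with a sample left out). Of all genes 2459 rose and 3113 fell, and 0 did either with no variance trend or with limma on 3 samples, where 5757 to 8599 genes had an unadjusted p under 0.05. Because limma on 3 samples called no gene, the same was run with edgeR, an alternative chosen after seeing the data. A lone sample was assumed to vary like the other group. The median log2 fold change of the 32 genes was 0.20 and stayed between 0.17 and 0.27 under all alternatives.

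Log2 fold changes near 0 turned their sign. *Ggps1* was 0.0089 with upper-quartile scaling. With a sample left out of limma, *Ggps1* ranged from −0.24 to 0.17, *Ebp* from −0.050 to 0.16, *Srebf2* from −0.20 to 0.033 and *Npc1* from −0.11 to 0.13. With a sample left out of edgeR, reversed values were 0.21 and 0.028 for *Ggps1*, −0.018 for *Ebp*, 0.069 for *Srebf2* and −0.074 for *Npc1*. None of these genes was called in the main test. The cause was not tested for any change of a count, other than that a filter alters the number of genes tested.

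Same-numbered samples had a correlation of deviations of 0.01 over 10544 genes. This gave no sign that the numbers pair the samples, but with 2 samples a group it cannot exclude pairing. The replicate block added *Sqle*, *Lss*, *Cyp51*, *Insig1* and *Fdps* to the genes that rose. Depth limited *Fdps* most, with 51 to 144 reads per library, and 2 samples a group limited every comparison.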
